A study of Caenorhabditis elegans with 2 samples.

Results

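The 26S proteasome is the protease complex that degrades proteins marked with ubiquitin. Its 20S core particle is a barrel of α rings, encoded in Caenorhabditis elegans by the pas genes, and β rings with the catalytic sites, encoded by the pbs genes. The 19S regulatory particle caps the barrel, with an ATPase ring that unfolds substrates, encoded by the rpt genes, and non-ATPase subunits that bind and deubiquitinate them, encoded by the rpn genes. In this worm the bZIP factor SKN-1 is known to activate proteasome genes when proteasome function is impaired.

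The proteasome subunit genes described here are the protein-coding genes of the WBcel235 assembly (Ensembl annotation) whose names start with pas-, pbs-, rpt- or rpn-. There are 33 of them among 19973 protein-coding genes on the nuclear chromosomes: 7 pas, 7 pbs, 6 rpt and 13 rpn genes. They were taken by name and not by a measured value, and none lies on the X chromosome. Earlier results of these data were known when they and the gene lists set beside them were chosen.

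The data are chromatin immunoprecipitation sequencing (ChIP-seq) peaks of EGL-43, a zinc finger transcription factor of the EVI1 family, from whole worms. All worms were of strain RW12181, with the allele st12181, in which TY1, EGFP and 3xFLAG tags were inserted at egl-43 on chromosome II by CRISPR. They were L4 larvae of 49 hours, synchronised as starved L1 larvae after bleaching, and the immunoprecipitation used an antibody to GFP, while the labels' antibody field names the target, egl-43. There were 2 samples, biological replicates 1 and 2 of 1 group. The labels name a possible control experiment, and whether the peaks were called against it is not stated in the sources used here. No untagged worms or control library were analysed here, so binding and background at a promoter cannot be told apart, and the animals were not dissected, so the cells behind a peak cannot be named.

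The peaks come in a ranked list of 65641 and a thresholded list of 3146 for both replicates together, and in the same pair of lists for each replicate. Thresholded peaks have a score of at least 830 of 1000 in the irreproducible discovery rate (IDR) procedure, a measure of how repeatable a peak is. In the series lists used here the score does not compare the list of replicate 1 with that of replicate 2. The signal of a peak is the authors' own value, and the read depth is unknown. Signals of the replicates are set side by side as their own lists give them, where the median over all ranked peaks was 23 in replicate 1 and 24.2 in replicate 2, and no difference between them was tested. A promoter summit is a peak summit from 1000 bp upstream to 500 bp downstream of any transcription start site (TSS) of the gene. Operons were not analysed here, so a window may not be a promoter where a gene lies downstream in one. The nearest upstream gene was on the same strand at 10 of the 33 genes, among them pbs-3 (ulp-2, 23 bp away), pas-1 (rpoa-12, 107 bp), pbs-5 (K05C4.2, 111 bp) and rpn-10 (mrpl-9, 119 bp). Neighbours of the other genes were not counted. Nearly all ranked peaks have a fixed width, 330 bp for 99.2% of the series ranked list, so a summit there is the middle of a fixed window.

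The thresholded series list held a promoter summit at 5 of the 33 proteasome genes, or 15.2%. The share was 7.55% among the other 19940 protein-coding genes. The 5 genes were pas-1 and pas-5 of the α ring, pbs-5, the β subunit that carries the chymotrypsin-like active site in other eukaryotes, rpn-3 of the lid and rpn-11, the metalloprotease that removes ubiquitin from substrates. By ring, these are 2 of 7 pas genes, 1 of 7 pbs genes, 2 of 13 rpn genes and 0 of 6 rpt genes. The difference from the other genes was not tested, since genes are not replicates and only 1 group of samples exists.

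The sites at 3 of these genes are shown as examples of summit position, one in the gene's own exon, one in a neighbour's exon and one near the TSS. Each run is from the RefSeq WBcel235 genome, on the strand of the proteasome gene and around the summit, without annotated untranslated regions. Capitals mark the hexamers GATAAG and also GATGAG, and the hexamers TATCAT and also TGTCAT, on either strand, where a TATCAT can overlap a GATAAG. The pas-1 run is chrV:14422246-14422445 on the minus strand, with the summit at base 100. The rpn-3 run is chrIII:8446592-8446791 on the plus strand, with the summit at base 101. The rpn-11 run is chrII:4044547-4044675 on the minus strand, with the summit at base 100, and ends just before the TSS.
pas-1: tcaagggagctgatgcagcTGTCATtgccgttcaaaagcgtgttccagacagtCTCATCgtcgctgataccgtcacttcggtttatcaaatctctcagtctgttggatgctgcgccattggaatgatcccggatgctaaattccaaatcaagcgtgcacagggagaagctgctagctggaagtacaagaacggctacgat
rpn-3: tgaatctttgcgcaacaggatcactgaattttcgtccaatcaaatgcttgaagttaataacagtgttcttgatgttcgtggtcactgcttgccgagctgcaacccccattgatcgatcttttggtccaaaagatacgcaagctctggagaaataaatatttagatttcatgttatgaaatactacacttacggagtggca
rpn-11: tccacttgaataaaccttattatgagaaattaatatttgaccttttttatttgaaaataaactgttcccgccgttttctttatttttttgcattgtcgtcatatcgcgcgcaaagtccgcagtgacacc
The former pair resembles sites of the fingers of EVI1-family proteins, and the latter pair matches the core that SKN-1 binds. In the pas-1 run, GATGAG occurs at bases 54 to 59 on the other strand and TGTCAT at bases 20 to 25. The rpn-3 and rpn-11 runs contain none of the 4.

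The strongest of the 5 peaks was at pas-1. It lay on chromosome V from 14422181 to 14422510 with a signal of 144, and its summit was 272 bp downstream of the TSS, in a coding exon of pas-1. The replicate lists gave signals of 81.1 for replicate 1 and 82.9 for replicate 2, and pas-1 was the only proteasome gene with a promoter summit in both thresholded replicate lists. The same summit also falls in the promoter window of dhs-22.

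The rpn-11 peak was the only one of the 5 centred near a TSS. It lay on chromosome II from 4044411 to 4044740, centred 30 bp before the outer of the gene's annotated starts, with a signal of 142. Its signals were 63.7 in replicate 1 and 82.4 in replicate 2. Neither replicate's thresholded list held it, with scores of 740 and 778, under the 830 needed.

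The pbs-5 peak, on chromosome I from 14720117 to 14720446, had a signal of 136 and a summit 195 bp downstream of the TSS in a coding exon. The replicate lists gave unlike scores here, with a signal of 52.1 and a score of 105 in replicate 1 and a signal of 85.9 and a score of 923 in replicate 2. Only replicate 2 held it above the threshold. A second thresholded peak (signal 149) had its summit 1143 bp before the pbs-5 TSS, in an intron of K05C4.2.

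The rpn-3 peak, on chromosome III from 8446527 to 8446856, had a signal of 119 and a summit 661 bp upstream of the rpn-3 TSS. That summit lies in a coding exon of the divergent neighbour hsp-110, which encodes a chaperone, and in the hsp-110 promoter window. With each summit given only to the gene of its nearest TSS, it no longer counts for rpn-3. Replicate signals were 65.2 and 57.9, with scores of 787 and 750, so neither replicate's thresholded list held it.

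The pas-5 peak was the weakest of the 5, with a signal of 109 and a score of 842. It lay on chromosome I from 10565240 to 10565569, and the summit, inside the snoRNA gene F25H2.15, was 945 bp before the TSS of pas-5. A stronger thresholded peak (signal 249) was centred beside that snoRNA gene, 1150 bp before the pas-5 TSS and so outside the window. Replicate signals at the weaker peak were 51.3 and 78.6, with scores of 955 and 583. The part of the snoRNA gene in this peak was not tested. The other 4 summits were at least 21017 bp from a tRNA, snoRNA or snRNA gene.

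None of the 5 was among the strongest thresholded peaks. Among its 3146 peaks they ranked 1454, 1499, 1679, 2413 and 2892, and pas-1 ranked 680 among the 1399 peaks with a promoter summit. Their median signal was 136, against 148 for the strongest promoter peak of the other genes with one. Each of the 5 peaks was also found in the conservative list, where 5 of 33 proteasome genes and 7.22% of the others had a promoter summit. The ranked list behind the conservative list mostly holds signals found in the replicates' own lists. These were 59006 of 65137 for replicate 1 and 58666 for replicate 2, so its score appears to compare the 2 replicates.

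**Figure D1:**
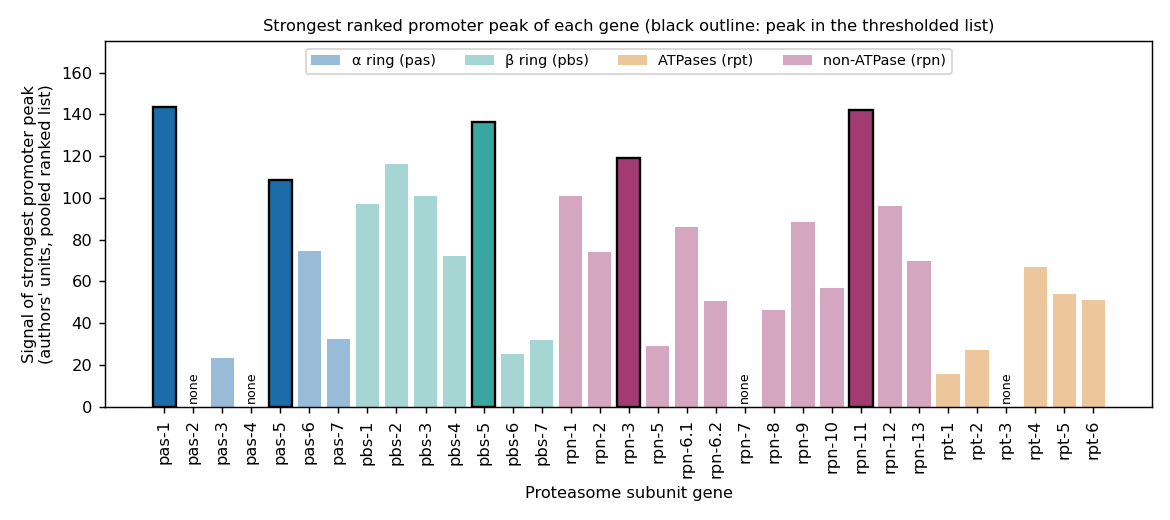
Signal of the strongest promoter peak of each of the 33 genes in the series ranked list, in the authors' units, coloured by ring, with no bar for the 4 genes that had none. The outlined bars, for the 5 genes in the thresholded list, lie between 109 and 144, and pbs-2 at 116 is the highest of the rest.

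Each replicate's own thresholded list gave fewer genes than the 5 of the series and conservative thresholded lists. The thresholded list of replicate 1 held promoter summits at pas-1 and pas-5, 2 of 33, with 3.94% among the other genes. That of replicate 2 held them at pas-1, pbs-2 and pbs-5, 3 of 33, with 4.1% among the other genes. Only pas-1 was in both, 1 of 33, or 3.03%, against 2.69% of the other genes. Of the 19 regulatory particle genes, 0 passed in either replicate. At the low shares of the other genes given above, so small a set says little.

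The pbs-2 peak shows how signal and score can part. PBS-2 is the β subunit with the trypsin-like site in other eukaryotes. In the series ranked list its peak had a signal of 116, above that of pas-5, but a score of 567, under the threshold. Replicate 1 gave a signal of only 37.2, while replicate 2 gave 85.3 with a score of 1000. The reverse held at rpn-1, which encodes a scaffold subunit of the base, with 71.1 in replicate 1, 26.3 in replicate 2 and a series score of 677. Replicate signals were also unlike at pbs-5, with 52.1 and 85.9, where the series score was 997. How replicate signals bear on the series score was not tested.

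**Figure D2:**
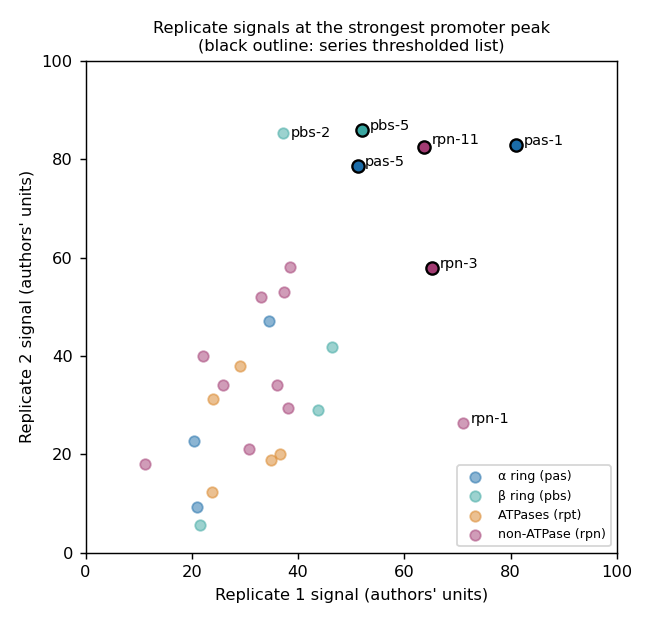
Signal in replicate 1 and replicate 2, each from its own ranked list in the authors' units, at the strongest series promoter peak of the 27 genes with a counterpart in both. Outlined points are genes of the series thresholded list; pbs-2 and rpn-1 are labelled, at 37.2 and 85.3 and at 71.1 and 26.3.

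In the ranked list, which holds many weak peaks, a promoter summit was found at 29 of the 33 genes, or 87.9%. Among the other protein-coding genes the share was 49.9%, and among those on autosomes 51.5%. The ranked list of replicate 1 gave 28 genes, with 55% of the others, and that of replicate 2 gave 29, with 51.5% of the others. The 4 genes with none in the series ranked list were pas-2 and pas-4 of the α ring, the lid gene rpn-7 and the ATPase gene rpt-3. Of these, pas-2 and pas-4 had none in either replicate list, rpt-3 had one in replicate 1 and rpn-7 one in replicate 2.

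The strongest promoter peaks of the 29 genes ran from a signal of 15.6 at rpt-1 to 144 at pas-1, with a median of 72. For the 9956 other genes with a ranked promoter peak the median was 64.8. The 29 peaks all had the fixed width of 330 bp. A signal at or above the median of the ranked list, 41.5, was found at 22 of the 29. It was found at 7859 of the 9956 other genes, a close share. In the list of replicate 1 the medians were 35.5 for proteasome genes and 33.9 for other genes, and in that of replicate 2 they were 35.0 and 36.4. Ranked promoter peaks were found at a larger share of the proteasome genes, while the medians of their signals lay close to those of other genes.

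Below the 5 genes already described, the highest signals without a thresholded summit were 116 at pbs-2, 101.2 at pbs-3, 101.1 at rpn-1, 97.2 at pbs-1 and 96.0 at rpn-12. The pbs-3 summit lay 821 bp upstream in a coding exon of ulp-2, and the rpn-12 summit 917 bp upstream in a coding exon of the divergent gene rad-23. At the pbs-1 peak, replicate 1 gave 68.1 while replicate 2 had no peak. Among other non-ATPase genes, the lid genes rpn-9 and rpn-6.1 had 88.3 and 86.3. The base scaffold gene rpn-2 had 74.2, and the ubiquitin receptor genes rpn-13 and rpn-10 had 69.7 and 57.1. The remaining non-ATPase genes rpn-6.2, rpn-8 and rpn-5 had 50.8, 46.4 and 29.3.

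Among the ATPase genes, the strongest ranked promoter peaks had signals of 67.0 at rpt-4, 54.2 at rpt-5, 51.1 at rpt-6, 27.1 at rpt-2 and 15.6 at rpt-1. Each of these was under the median of the 29 genes, 72, and rpt-4 was above that of the other genes, 64.8. The lowest core particle genes were pas-7 with 32.5, pbs-7 with 31.9, pbs-6 with 25.1 and pas-3 with 23.3, while pas-6 had 74.4 and pbs-4 had 72.

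Many of these summits lay inside the genes. Of the 29 strongest promoter summits, 15 (51.7%) were in a coding exon of the proteasome gene itself, against 26.9% for the other genes. Downstream of the nearest TSS lay 51.7% of them, against 40.0% for the other genes. The median position was 47 bp downstream of the TSS for proteasome genes and 141.5 bp upstream for the others. Replicate 2 shared this difference in medians, with 40 and -139 bp, and replicate 1 did not, with -158.5 and -145 bp. The shares above were not counted per replicate. The summit also fell in the promoter window of another gene at 16 of the 29 genes, and inside another protein-coding gene at 9. At these genes the position of the peak does not tell which neighbour it belongs to. Shared windows and summits inside neighbours were not counted for the other genes, so they cannot be called a trait of proteasome genes.

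**Figure D3:**
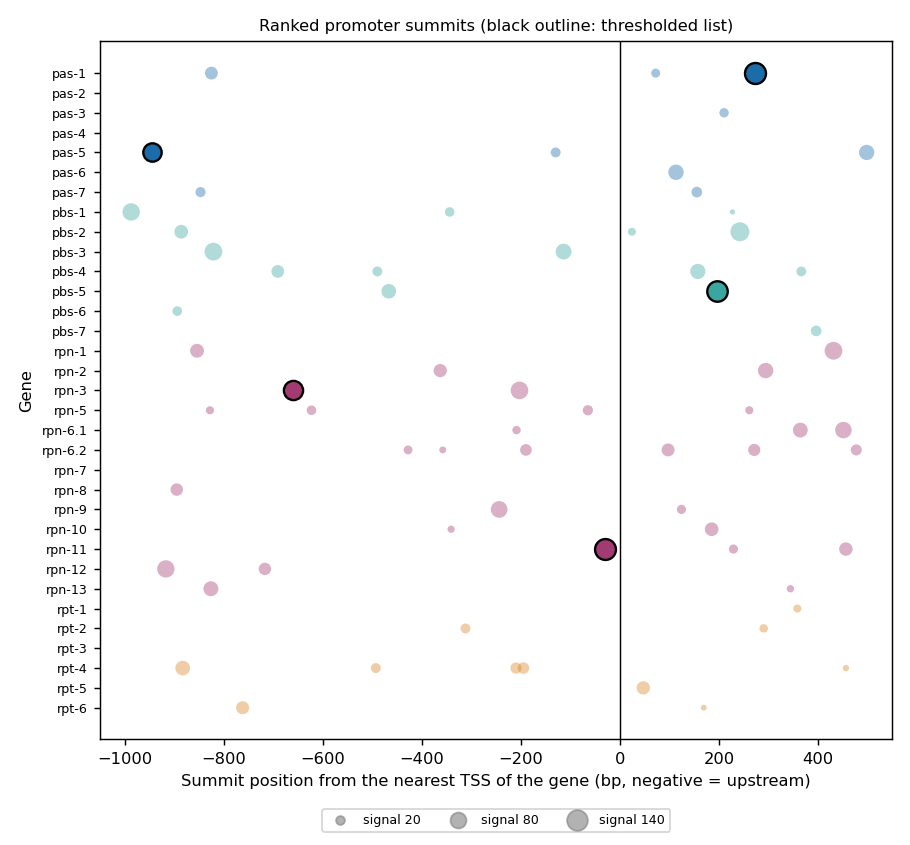
Position of every ranked promoter summit of each gene relative to its nearest TSS, in bp with upstream negative; point area grows with signal and colour gives the ring as α in blue, β in green, non-ATPase in purple and ATPase in orange. The 5 outlined thresholded summits lie between 945 bp upstream and 272 bp downstream, and the one at rpn-11 is nearest to the TSS.

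Thresholded summits were also counted over the whole gene. A summit inside the gene was present at 6 of 33 proteasome genes (18.2%), namely pas-1, pbs-1, pbs-5, rpn-12, rpt-4 and rpt-6, and at 6.89% of the other genes. At pas-1 and pbs-5 the promoter summit itself lies inside the gene, so these repeat the promoter result. At pbs-5 a further thresholded summit (signal 20.4) lay 1305 bp downstream of the TSS. The median gene length was 1490 bp for proteasome genes and 2029 bp for the others. The rpn-12 summit, with a signal of 99.5, lay 530 bp downstream of its TSS in a coding exon, just past the window, and is the same summit that counts as promoter summit of rad-23. The rpt-6 and rpt-4 summits, with signals of 133 and 106, were in coding exons 1812 and 683 bp downstream of the nearest TSS.

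Further upstream, between 1000 and 2000 bp, thresholded summits lay at pbs-1 (signal 214), rpt-6 (160), rpn-8 (144) and rpt-2 (124). The pbs-1 peak was found in both thresholded replicate lists, with signals of 92.5 and 116. The rpn-8 summit was in a coding exon of R12E2.11 and the rpt-2 summit in an intron of picc-1. The rpt-6 summit lay 536 bp from the snoRNA gene Y49E10.36. With this wider window 9 of 33 genes had a thresholded summit, against 10.4% of the other genes.

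Other large complexes are set beside the proteasome in the thresholded list. A promoter summit was found at 32 of 78 cytosolic ribosomal protein genes (41.0%), 3 of 8 genes of the chaperonin CCT (37.5%) and 7 of 20 genes of the vacuolar proton pump (35.0%). In the ranked list the shares came closer to 87.9%, with 89.7% for ribosomal protein genes, 100% for the chaperonin and 85.0% for the proton pump. The 1000 strongest ranked peaks reached no proteasome gene, 2.75% of other genes and 21.8% of ribosomal protein genes. At 5000 peaks the shares were 27.3% for the proteasome, 10.8% for other genes and 53.8% for ribosomal protein genes. These differences between lists were not tested.

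**Figure D4:**
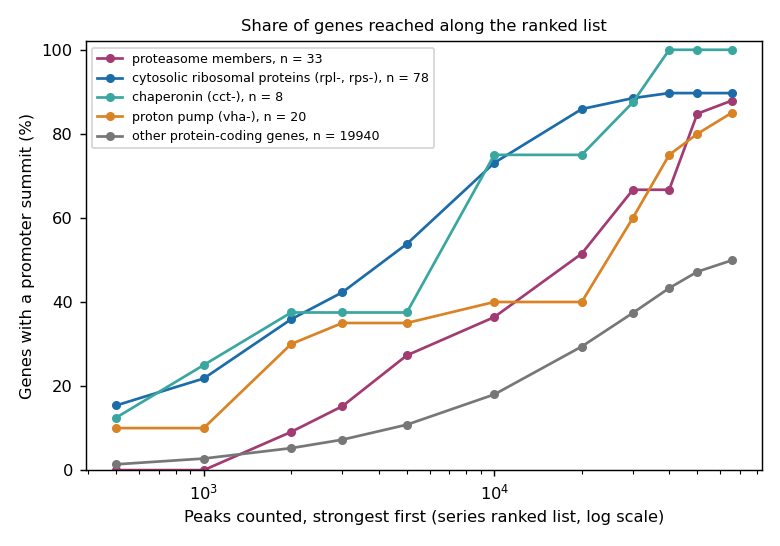
Percentage of genes with a promoter summit (vertical axis) among the strongest peaks of the series ranked list, by number of peaks counted (horizontal log axis), for proteasome genes, 3 other gene groups and the other protein-coding genes. The proteasome line is at 0 at 1000 peaks, at 15.2% at 3000 and at 87.9% at the end of the list.

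Genes that act with the proteasome were looked up in a list of 20 cofactors and regulators, of which 4 (20%) had a thresholded promoter summit, against 7.55% of the protein-coding genes outside the proteasome. The thresholded list of replicate 1 gave 2 of the 20 (10%), against 3.94% of those other genes. That of replicate 2 gave 1 (5%), close to the 4.1% of the others. The strongest was at cdc-48.1, which encodes the p97 ATPase that extracts ubiquitinated proteins, with a signal of 395 on chromosome II from 10563477 to 10563663, and both replicate lists held it. The others were aip-1 (signal 130.4), which encodes an arsenite-induced zinc finger protein, wdr-23 (128), a repressor of SKN-1, and rad-23 (99.5), a shuttle for ubiquitinated proteins. The SKN-1 gene itself had a ranked promoter peak with a signal of 124 and a score of 442. Among the genes whose products process SKN-1 for proteasome recovery, ddi-1 had a ranked peak with a signal of 94.6 and png-1 had none. The gene of the small lid subunit dss-1 had 56.2.

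Among 33 genes of ubiquitin supply, activation, conjugation and cullins, 9 (27.3%) had a thresholded promoter summit, set against the same 7.55%. Each replicate's thresholded list gave 5 of the 33 (15.2%), against 3.94% of the other genes in replicate 1 and 4.1% in replicate 2. The strongest were at the E2 genes ubc-6 (signal 409), let-70 (318) and ubc-3 (279), each found in both replicate lists. The polyubiquitin gene ubq-1 had 191, ubq-2, which encodes ubiquitin fused to a ribosomal protein, had 141, and the E1 gene uba-1 had 117. The remaining ones were ubc-9 (146), the SUMO-conjugating enzyme gene, rbx-1 (129), which encodes the RING subunit of cullin ligases, and ubc-13 (116). None of the 6 cullin genes had one. The strongest of these peaks lay far above the 144 of pas-1.

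Motif letters were counted over fixed windows. Within 50 bp of the 5 thresholded summits, GATGAG occurred at pas-1 only and the other 3 hexamers at none. Among all 1399 thresholded promoter summits the shares were 7.15% for GATGAG, 1.43% for GATAAG, 1.86% for TATCAT and 3.43% for TGTCAT. In the 300 bases from 250 upstream to 50 downstream of the outermost TSS, TGTCAT occurred at 12 of 33 proteasome genes (36.4%) and at 16.3% of the other genes. TATCAT occurred at 4 proteasome genes (12.1%) and 19.4% of the others, GATAAG at 2 (6.06%) and 16.8%, and GATGAG at 1 (3.03%) and 13.4%. Within 50 bp of the strongest ranked summits the order was the other way for these 3, on few genes. GATGAG occurred at 4 of the 29 proteasome genes (13.8%) and 6.51% of the others, and TATCAT at 2 (6.9%) and 3.09%. GATAAG occurred at 1 (3.45%) and 3.01%, so a single gene sets its order. TGTCAT occurred there at 10.3% and 4%. A match is only a run of letters, not a bound site.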

How the data were processed

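Peaks are placed on ce11 coordinates, per the file headers, and WBcel235 is the same assembly. No source used here names the software that aligned reads or called peaks. The authors deposited an IDR score, a signal value of no standard unit and a summit offset in bp for each peak. Ranks and medians of the signal were taken within a list. Every peak of the thresholded series list is in 1 of the 2 series ranked lists, which is called the ranked list here. The other ranked list belongs to the conservative list. Both ranked lists also hold the signals of the 2 parts compared for each peak. In the ranked list used here, 166 and 126 of 65641 such signals were found in the lists of replicates 1 and 2. In the other one, 59006 and 58666 of 65137 were found. The thresholded list leaves out 47 ranked peaks with scores at or above its lowest score, 830. Replicate values are from each replicate's own list, taken at the overlapping peak whose summit is nearest.

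The annotation was Ensembl release 115 on WBcel235 with 29314 protein-coding TSSs, and 12 mitochondrial genes were left out. No peak ran past a chromosome end. Python 3.11.15, pandas 2.3.3, numpy 2.4.6 and matplotlib 3.10.9 were used. Gene assignment was checked on simulated data. No test was made, since there is 1 group of 2 replicates. The genes and lists were chosen with earlier results of these data known. In full were described the genes with a thresholded promoter summit, then the 5 strongest ranked promoter peaks among the rest, then the genes with none. Alternatives covered other lists, windows, gene assignment, small RNA genes and each replicate.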

Additional observations from a re-analysis of the deposited data

How the results depend on the processing

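The count of 5 proteasome genes with a thresholded promoter summit rests on few peaks, of which pas-5, with a score of 842, lies nearest to the threshold of 830. It was 2 (6.06%) with peaks at or above the median signal (1 core and 1 regulatory particle gene), against 4.31% of the other genes. With a promoter from 500 bp upstream to 250 bp downstream it was also 2 (1 and 1), against 4.89%. In both settings the proteasome share lay closer to that of the other genes than 15.2% does to 7.55%. With 2000 bp upstream the count was 9, against 10.4% of the other genes, with 5 of the regulatory particle and a median summit position of -1150 bp. Single replicates gave 2 to 3 genes, a median signal of 66.2 to 85.3 on the scale of those lists, and 0 of 19 regulatory particle genes in both. The share of the other genes there was 3.94% and 4.1%. With only the nearest TSS counted, 1 regulatory particle gene was left in place of 2. With any peak overlap the median signal was 119 in place of 136. Counts were also made under peak overlap, the conservative list, the nearest TSS and without summits near small RNA genes. A further count took all ranked peaks with a score of at least 830. These counts ran from 4 to 7, within 1.5 times of 5. In these settings the share of the other genes ran from 6.29% to 8.4%. A summit inside the gene, an alternative added after the data were seen, gave 6, against 6.89% of the other genes. The ranked count ran from 22 to 29, and the share of the other genes from 40% to 55%. The cause of these shifts was not tested. No paired analysis was possible because both samples belong to 1 group. Read depth is unknown, so a gene without a peak cannot be called unbound.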

Other observations

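The proteasome genes are spread over the autosomes, with 10 on chromosome I, 7 on II, 8 on III, 3 on IV and 5 on V. A ranked promoter summit was found at 9, 7, 7, 2 and 4 of them. Among the other genes the share was 60.9% on I, 61.7% on II, 63.4% on III, 44.1% on IV and 37.9% on V. A divergent gene was the nearest upstream neighbour at 23 of the 33 genes, and the share over the other genes was not counted. The median GC content within 50 bp of the summit was 47.5% at the 5 thresholded peaks and 52.5% over all 1399 thresholded promoter summits.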
